A study of Mus musculus with 30 samples.

Results

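All trained mice of this experiment, 24 mice in 4 conditions, were compared with the 6 home cage mice of the same series of 30. The mean of the 4 trained conditions was tested, so a gene can pass when only some of them moved. The members were chosen by their condition alone. VEH-HC mice stayed in the home cage, were handled and had the transfection reagent in vivo-jetPEI without DNA. VEH-T10 mice had the same reagent and 10 min of object location memory (OLM) training, in which a mouse explores a pair of identical objects in an arena, and VEH-T3 mice had it with 3 min, a subthreshold session. Y397F-T10 and Y397D-T3 mice trained for 10 and 3 min after a plasmid for HA-tagged mouse CREST with the point mutation Y397F or Y397D. A short CaMK2 promoter drove its expression. The labels call Y397F phospho-null and Y397D phospho-mimetic. The study could not detect phosphorylation at Y397, and it did not overexpress wild-type CREST. The reagent or plasmid was delivered to both hemispheres of the dorsal hippocampus 3 days before training. All 30 were wild-type adult C57BL/6J male mice, 6 in each condition, and tissue was frozen 1 h after training. The labels call the tissue dorsal hippocampus, and the study's methods call it dorsal CA1. A legend in the study's supplement says that a hemisphere of dorsal hippocampus was collected. The plasmid was given in 2 of the 4 trained conditions and to no home cage mouse. By the study's methods home cage mice were only handled, while the OLM procedure has daily habituation sessions in the arena before training. Home cage and trained mice differ in this habituation, the arena, the objects and learning, and these cannot be told apart here.

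Neurons that fire strongly switch on immediate-early genes within minutes, through calcium entry and the ERK kinase cascade. Many of these genes encode transcription factors such as Fos and the Egr family, while others encode synaptic and signalling proteins such as Homer1a and BDNF, and the ERK pathway induces its own inhibitors. CREST, encoded by Ss18l1, is a subunit of the neuronal BAF chromatin remodelling complex that binds the acetyltransferase CBP, encoded by Crebbp. The circadian clock also runs in the hippocampus, with the BMAL1-CLOCK activator driving its own repressors and output genes such as Dbp and Nr1d1.

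Expression is given as FPKM, fragments per kilobase of transcript, scaled to the mapped fragments of the library. Differences are given as log2 differences of FPKM + 1, the mean of the 4 trained conditions minus VEH-HC, which understates the change of genes with low values. Of 24883 rows of the table, 13184 had a mean of at least 1 FPKM and were tested with limma. At an adjusted p under 0.05, 509 rows (3.86%) were higher and 764 (5.79%) were lower in trained mice. The median difference over all tested rows was −0.04. After each library was centred on its own median the split turned to 603 higher and 307 lower, so directions of small differences depend on the scaling. All 24 trained mice were above the highest VEH-HC mouse for 7 rows (0.0531%) and below the lowest for 9 rows (0.0683%).

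These counts moved with single libraries and with tissue markers. Without VEH-HC mouse 2 they were 286 higher and 325 lower, without VEH-HC mouse 4 they were 268 and 430, without VEH-HC mouse 3 the lower count was 497, and without the Y397D-T3 condition they were 245 and 453. VEH-HC mouse 4 stood apart through low values of long transcripts, with a rank correlation of −0.31 between transcript length and its deviation from the mean of all libraries. The summed FPKM of 15 thalamus marker rows was 87.9 to 128.6 in VEH-HC (median 117.3) and 72.3 to 133.7 in trained mice (median 79.8), and 18 of 24 trained mice lay below every VEH-HC mouse. When mean levels of thalamus and choroid plexus markers were entered as covariates, 0 rows passed in limma in either direction, and before adjustment p was under 0.05 for 717 higher and 745 lower rows. Thalamus markers alone gave the same 0 and 0 (707 and 813 before adjustment), while choroid plexus markers alone left 456 and 731. The median SE rose from 0.062 to 0.096 with both covariates. Every call below is from the test without covariates, and the part of captured tissue in it was not tested. Values with both covariates are given below for the named genes whose log2 difference they moved by over 1.5 times, and for some others.

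The clearest single genes were those for which trained and home cage mice did not overlap. Kdm7a, a histone demethylase gene (chromosome 6, 39136623 to 39206789, minus strand, mm10), had 4.72, 6.00 and 6.38 FPKM as lowest, median and highest VEH-HC value and 7.31, 8.40 and 11.5 in the 24 trained mice. Every trained mouse was above every home cage mouse, and the log2 difference was 0.50 ± 0.06 (SE, adjusted p = 0.00012). Homer1, whose short activity-induced form displaces the long Homer scaffolds at synapses (chromosome 13, 93299635 to 93405129, plus strand), had 14.4, 16.2 and 17.4 FPKM in VEH-HC and 18.5, 22.5 and 26.1 in trained mice. Its groups did not overlap either, with a log2 difference of 0.46 ± 0.06 (adjusted p = 0.00015). The table does not separate Homer1 isoforms.

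Epha6, an ephrin receptor gene (chromosome 16, 59653483 to 60605531, minus strand), had 7.39, 10.8 and 12.7 FPKM in VEH-HC against 12.9, 16.9 and 24.5 in trained mice. The gap between the highest home cage and the lowest trained mouse was narrow, and the log2 difference was 0.65 ± 0.10 (adjusted p = 0.00039). Lurap1l had 14.1, 17.3 and 19.9 FPKM in VEH-HC against 20.1, 22.7 and 27.0, again with no overlap, and a log2 difference of 0.39 ± 0.05. The splicing factor gene Sfpq, among the 5 raised genes with the smallest p, had 40.9, 44.2 and 47.6 FPKM against 46.9, 50.3 and 56.5, and 23 of 24 trained mice were above the home cage range. Its difference was small, 0.21 ± 0.03. With both covariates the log2 differences were 0.37 ± 0.10 for Kdm7a, 0.33 ± 0.09 for Homer1, 0.58 ± 0.16 for Epha6 and 0.26 ± 0.08 for Lurap1l, none with an adjusted p under 0.05. The other rows in which every trained mouse exceeded every home cage mouse were Rnf182, the pseudogene Slc2a4rg-ps and Banp, named here after their values were seen.

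Among the 17 pathway lists, activity-induced transcription factor genes had the largest share of raised members. Of 22 listed genes 21 were tested, 8 rose and 0 fell, 38.1% against 3.86% of all tested rows, with a median log2 difference of 0.14. Egr1, a zinc finger factor gene long used as a marker of neuronal activity, had 30.8, 37.1 and 39.7 FPKM as lowest, median and highest VEH-HC value and 35.0, 51.9 and 67.6 in trained mice. All but 2 of the 24 trained mice were above the home cage range, and the log2 difference was 0.52 ± 0.10 (adjusted p = 0.0024), a 1.46-fold ratio of mean FPKM. Fos had 3.85, 4.58 and 6.46 FPKM in VEH-HC and 4.44, 7.05 and 9.61 in trained mice, so that 16 trained mice were above the home cage range and the others overlapped it. Its log2 difference was 0.41 ± 0.11 (adjusted p = 0.020). Fosb had 1.44, 1.73 and 1.88 FPKM against 1.67, 2.48 and 3.84, with 22 trained mice above the range and a difference of 0.39 ± 0.09.

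Nr4a3, an orphan nuclear receptor gene, had 12.4, 14.5 and 16.5 FPKM in VEH-HC and 16.3, 18.4 and 25.96 in trained mice, with 23 of 24 above the home cage range and a log2 difference of 0.39 ± 0.08. The other Egr genes also rose, Egr4 by 0.33 ± 0.07, Egr3 by 0.25 ± 0.06 and Egr2 by 0.45 ± 0.12 on the log2 scale. Egr2 was the lowest of them, with 0.247, 0.615 and 1.13 FPKM in VEH-HC against 0.724, 1.17 and 1.86 in trained mice, and only 13 trained mice were above the home cage range. Crem, which encodes activators and the repressor ICER of the CREB family, rose by 0.27 ± 0.06. The remaining 13 tested members did not pass. Among them Npas4 differed by 0.35 (adjusted p = 0.10), Junb by 0.14 (0.29), Nr4a1 by 0.15 (0.33) and Jun by −0.10 (0.42).

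With the covariates these log2 differences were 0.75 ± 0.15 for Egr1, 0.72 ± 0.17 for Fos, 0.59 ± 0.11 for Egr4, 0.69 ± 0.18 for Egr2 and 0.43 ± 0.14 for Fosb, as large as or larger than without them. They were 0.26 ± 0.12 for Nr4a3, 0.29 ± 0.09 for Egr3 and 0.23 ± 0.10 for Crem. The smallest adjusted p among the named genes was then 0.099, for Egr4. Centring the libraries left 9 members raised and 0 lowered, and leaving out VEH-HC mouse 4 left 6 and 0, with Fos (adjusted p = 0.066) and Egr2 (0.075) no longer passing. With vehicle conditions only, 4 of the 21 rose (19.05%, against 1.252% of all rows) and 0 fell.

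**Figure D1:**
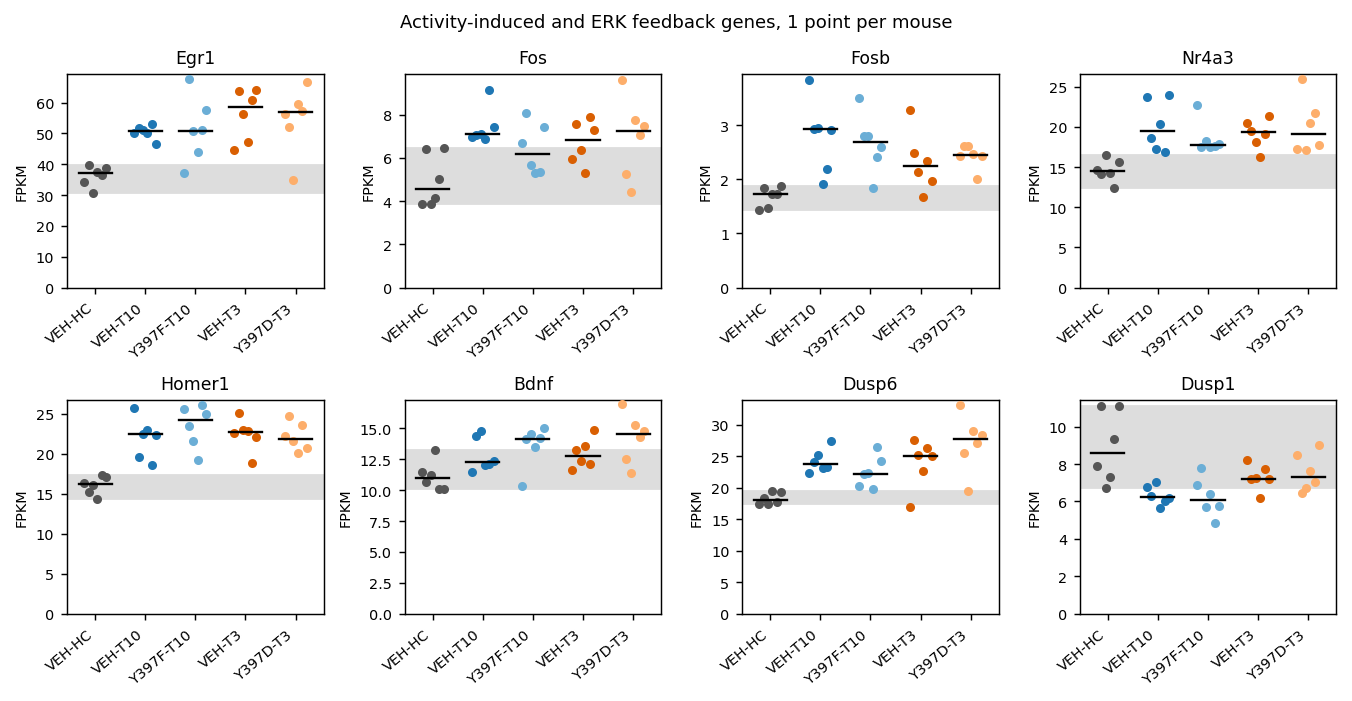
FPKM of 8 activity-induced and ERK feedback genes in each of the 30 mice, by condition, with the median of each condition as a line and the VEH-HC range shaded. All 24 trained mice are above the shaded range for Homer1 and 22 are above it for Egr1, Fosb and Dusp6, while 10 are below it for Dusp1.

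Activity-induced effector genes, which encode synaptic, secreted and signalling proteins, had 35 tested members. Of these 5 rose (14.29% against 3.86% of all tested rows) and 2 fell (5.714%, near the 5.79% of all rows), with a median log2 difference of −0.01. With vehicle conditions only, 1 rose and 0 fell in limma, against 165 and 303 of all rows. Bdnf, which encodes a neurotrophin, had 10.1, 10.9 and 13.2 FPKM in VEH-HC against 10.4, 13.5 and 16.9 in trained mice. The groups overlapped in 11 of 24 trained mice, and the log2 difference was 0.24 ± 0.07 (adjusted p = 0.026). Ptgs2, which encodes the prostaglandin synthase COX-2, rose by 0.29 ± 0.08, the small GTPase gene Arl5b by 0.26 ± 0.06 and Errfi1, an inhibitor of EGF receptor signalling, by 0.18 ± 0.06. Rgs4, a GTPase activator for G proteins, fell by 0.27 and the kinase gene Sik1 fell by 0.29 on the log2 scale. Neither Rgs4 (adjusted p = 0.13) nor Sik1 (0.059) passed after centring. With the covariates the differences were 0.12 ± 0.10 for Arl5b and 0.16 ± 0.13 for Ptgs2. Arc, whose product drives AMPA receptor endocytosis, had 29.96, 37.6 and 44.3 FPKM in VEH-HC against 28.9, 38.5 and 75.5 in trained mice and did not pass (log2 difference 0.16, adjusted p = 0.40).

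Genes of ERK feedback, the phosphatases and adaptors that limit the cascade, had 11 tested members, of which 3 rose (27.27% against 3.86% of all rows) and 1 fell (9.091% against 5.79%), with a median of 0.09. Dusp6, an ERK phosphatase gene, had 17.4, 18.1 and 19.5 FPKM in VEH-HC and 17.0, 24.6 and 33.1 in trained mice. A single trained mouse was below the home cage range and 22 were above it, and the log2 difference was 0.39 ± 0.08 (adjusted p = 0.0036). Spred1 rose by 0.18 ± 0.03 and Spred2 by 0.21 ± 0.04, both genes for inhibitors of Ras-ERK signalling. Dusp1, a phosphatase gene for several MAP kinases, went the other way, with 6.71, 8.61 and 11.1 FPKM in VEH-HC and 4.83, 6.83 and 9.003 in trained mice. Its groups overlapped in 14 of 24 trained mice, and it fell by 0.32 on the log2 scale (SE 0.08, adjusted p = 0.015). With the covariates the difference was −0.01 ± 0.11 for Dusp1 and 0.06 ± 0.09 for Sik1, against 0.37 ± 0.13 for Dusp6.

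The starts of these genes were searched for binding motifs in the 250 bases upstream, in RefSeq promoter windows of GRCm38.p6 that were found for 69 of the 85 named genes. The CRE, the site of CREB, was searched as TGACGTCA on both strands, the E-box as CACGTG, and the CArG box, the site of serum response factor, by its consensus. Of 9975 tested genes with a window, 3.09% held a CRE, 9.98% an E-box and 1.40% a CArG box. A CRE was found for 17 of 383 raised genes (4.44%) and 12 of 568 lowered genes (2.11%), and a CArG box for 7 of 383 (1.83%) and 7 of 568 (1.23%). Of 5 raised activity-induced transcription factor genes with a window, 0 held a CRE and only Egr2 held a CArG box. The window at another RefSeq start of Egr2 held none. Not shown are the CRE of Hs3st2, which fell, and of Rpl26, which rose, and the CArG box of Lurap1l, which rose. Shown are the stretches of 100 bases that hold the CArG box of Egr2, which rose (chr10:67537449-67537548, plus strand), and the CRE of Arl5b and Errfi1, which rose (chr2:15055153-15055252 and chr4:150854970-150855069, plus strand), and of Dusp1, which fell (chr17:26508562-26508661, minus strand). Capitals mark the motif, and each line reads 5′ to 3′ on the strand of the gene.
Egr2: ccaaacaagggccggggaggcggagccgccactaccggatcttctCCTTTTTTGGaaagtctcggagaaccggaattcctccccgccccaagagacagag
Arl5b: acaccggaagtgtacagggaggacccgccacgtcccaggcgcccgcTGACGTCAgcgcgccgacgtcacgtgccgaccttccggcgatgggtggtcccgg
Errfi1: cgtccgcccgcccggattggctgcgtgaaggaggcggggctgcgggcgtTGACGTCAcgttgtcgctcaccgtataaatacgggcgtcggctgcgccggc
Dusp1: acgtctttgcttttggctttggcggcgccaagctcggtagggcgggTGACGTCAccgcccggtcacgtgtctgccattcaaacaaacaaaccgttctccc
The same 8 letters thus stood upstream of genes that moved in opposite directions.

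Circadian clock genes held the lowered genes with the smallest p. Of 24 tested members 5 fell (20.83%, against 5.79% of all rows) and 2 rose (8.333%), with a median of −0.06. Dbp, a clock output gene encoding a PAR bZIP factor (chromosome 7, 45705088 to 45710203, plus strand), had 31.4, 42.4 and 53.3 FPKM as lowest, median and highest VEH-HC value and 20.4, 26.5 and 31.4 in trained mice. All trained mice but 1 were below the home cage range, and Dbp fell by 0.71 on the log2 scale (SE 0.09, adjusted p = 0.00012), with mean FPKM of 43.8 ± 8.03 (SD, n = 6) in VEH-HC and 25.7 to 27.5 in the 4 trained conditions. Nr1d1, which encodes the repressor REV-ERBα (chromosome 11, 98767932 to 98775333, minus strand), had 51.9, 55.2 and 60.5 FPKM in VEH-HC and 35.6, 42.3 and 50.0 in trained mice. Every trained mouse was below every home cage mouse, and Nr1d1 fell by 0.39 (SE 0.06, adjusted p = 0.00026). Ciart, a repressor of the BMAL1-CLOCK activator, had 4.65, 7.06 and 8.59 FPKM against 2.35, 3.85 and 5.04, with 21 of 24 trained mice below the range, and fell by 0.69 (SE 0.11).

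Nr1d2, the paralogue of Nr1d1, fell by 0.20 and Npas2, a partner of BMAL1, fell by 0.35 on the log2 scale, and neither passed after centring (adjusted p = 0.056 and 0.079). Per2, a core repressor gene that is also induced by signalling, had 4.39, 4.65 and 5.32 FPKM in VEH-HC and 4.88, 6.40 and 7.68 in trained mice. It rose by 0.38 ± 0.06 (adjusted p = 0.00046), with 22 of 24 trained mice above the home cage range. Clock rose by 0.19 ± 0.04, and Per1 (log2 difference 0.04, adjusted p = 0.68) and Arntl, the gene of BMAL1 (0.16, 0.092), did not pass. With the covariates the differences were −0.62 ± 0.15 for Dbp, −0.46 ± 0.09 for Nr1d1, −0.76 ± 0.17 for Ciart and 0.26 ± 0.09 for Per2. Dbp and Nr1d1 overlap Sphk2 and Thra on the opposite strand by 737 and 1075 bases, and the sources used here do not say whether strand was used. Behaviour was run in the morning by the study's methods. The hour at which each mouse was killed is not given in the sources used here, and its part in the clock genes was not tested.

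The upstream stretch of Ciart is shown because it held repeated E-boxes, the site bound by BMAL1-CLOCK. It held 3 matches of CACGTG (chr3:95882256-95882355, minus strand), marked in capitals, and the windows of Dbp, Nr1d1, Nr1d2, Npas2 and Clock held none.
Ciart: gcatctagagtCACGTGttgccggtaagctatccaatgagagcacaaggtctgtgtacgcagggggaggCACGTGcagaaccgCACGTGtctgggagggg

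**Figure D2:**
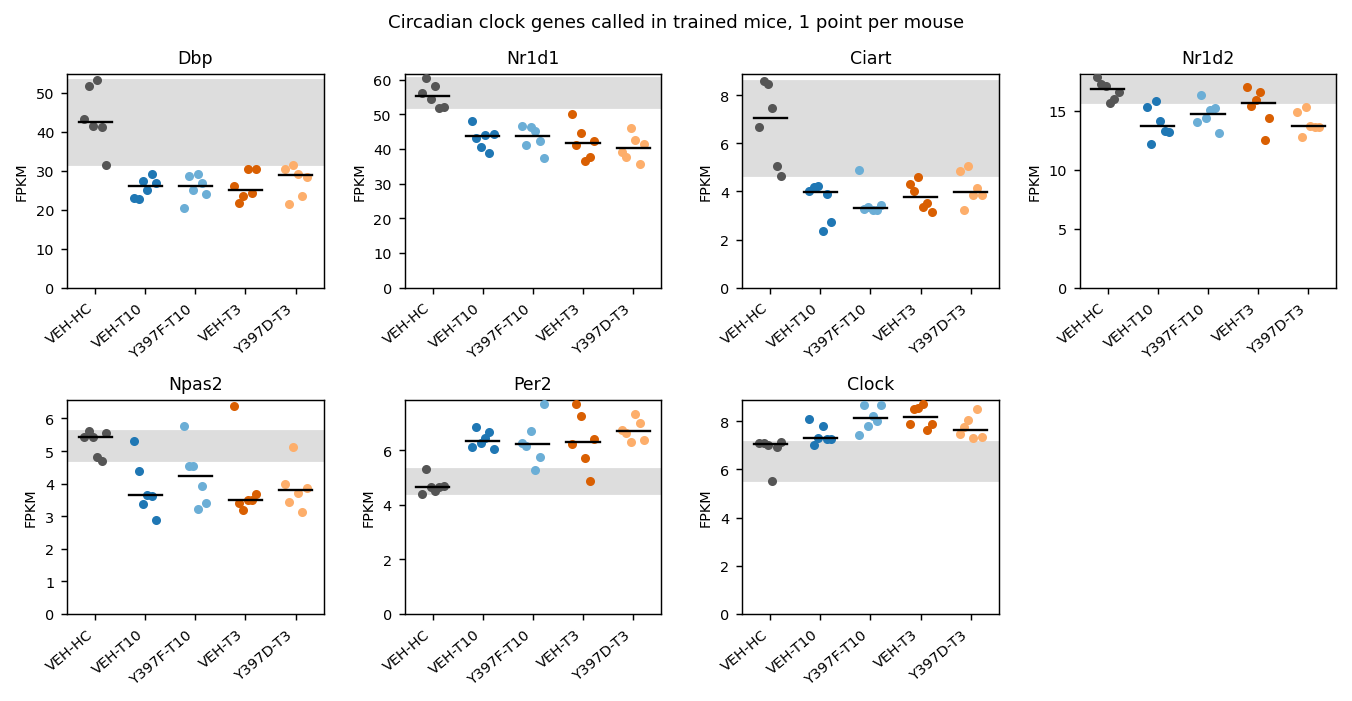
FPKM of the 7 circadian clock genes that passed, in each of the 30 mice by condition, with condition medians as lines and the VEH-HC range shaded. Nr1d1 has all 24 trained mice below the range and Dbp has 23, while Per2 has 22 above it.

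The largest falls included Calb2 and Slc17a6, both listed as markers of the thalamus, which lies beside the hippocampus. The largest fall of the named genes, Tshz2, was on no marker list. Tshz2, a transcription factor gene, had 7.32, 11.3 and 13.3 FPKM as lowest, median and highest VEH-HC value and 1.11, 3.52 and 21.1 in trained mice. Of the 24 trained mice 22 were below the home cage range and 2 above it, with 21.1 FPKM in VEH-T3 mouse 1 and 13.5 in Y397D-T3 mouse 3, and Tshz2 fell by 1.32 (SE 0.32, adjusted p = 0.012). Calb2, the gene of the calcium buffer calretinin, had 18.7, 34.6 and 42.0 FPKM against 6.23, 10.5 and 33.4 and fell by 1.29 (SE 0.29). Slc17a6, which encodes the glutamate transporter VGLUT2 of thalamic and other subcortical neurons, had 3.60, 4.48 and 5.06 FPKM against 0.651, 1.58 and 6.15, with 23 of 24 trained mice below the range, and fell by 0.97 (SE 0.19). Others of the 12 largest falls were Nxph3, the neuropeptide genes Grp and Nts, the glutathione peroxidase gene Gpx3, Hs3st2, Tmem91, the netrin gene Ntn5 and Dlk1, with log2 differences from −1.17 for Nxph3 to −0.84 for Dlk1.

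Several other markers of tissue beside the hippocampus fell too, and fewer cells of a type cannot be told apart from less RNA per cell in bulk tissue. The counts of markers in this paragraph compare with 3.86% higher and 5.79% lower of all tested rows. Of 15 thalamus markers 11 were tested and 4 fell, Slc17a6, Calb2, Zic1 (by 1.03) and Rgs16 (by 0.27), while Prkcd (log2 difference −0.17, adjusted p = 0.78) and Rora (−0.03, 0.84) did not pass. Of 8 tested markers of the deep cortical layers and subiculum 3 fell, Ctgf by 0.72, Cplx3 by 0.69 and Rprm by 0.42, and Hs3st4 rose by 0.25. Their summed level was 106.4 to 123.5 FPKM in VEH-HC (median 114.8) and 93.2 to 146.0 in trained mice (median 108.8). Of the trained mice 8 had a sum below the VEH-HC range. The sum is weighted to the highest rows. The mean log2 level of the tested markers, which weights each alike, was 3.46 to 3.75 in VEH-HC (median 3.59). In trained mice it was 3.07 to 3.97, and its median, 3.345, lay below every VEH-HC mouse. The summed FPKM of 15 choroid plexus rows ran from 1089 to 6459 in VEH-HC and from 46.5 to 14580 in trained mice, 15 of which were below every VEH-HC mouse, and 0 of the 15 passed in limma. Meningeal fibroblast markers, 10 rows, summed to 647.3 to 1040 FPKM in VEH-HC (median 734.3) and 231.7 to 1891 in trained mice (median 542.6), with 16 trained mice below the range. Ependymal markers, also 10 rows, summed to 107.0 to 162.1 FPKM (median 151.9) against 45.1 to 222.0 (median 97.7), with 14 below it. Only Dcn of the fibroblast and none of the 9 tested ependymal markers passed in limma, and the part of these tissues in the falls was not tested. For CA1 neurons the summed level of 7 markers was 246.4 to 272.6 in VEH-HC and 189.5 to 288.9 in trained mice, 17 of them below the VEH-HC range. Only Dcn passed there (fell by 0.61), the same gene as in the fibroblast list. The defining CA1 marker Wfs1 ran from 46.9 to 59.5 FPKM in VEH-HC and from 18.4 to 72.6 in trained mice (adjusted p = 0.69), and Fibcd1 from 34.2 to 42.3 and from 31.2 to 53.1 (0.89). For the dentate gyrus, sums were 118.4 to 144.7 in VEH-HC (median 122.2) and 69.8 to 193.5 in trained mice (median 152.9). Of the trained mice 14 were above the VEH-HC range and 6 below it, and 0 of 9 markers passed. The CA2 and CA3 sum had a median of 625.6 in VEH-HC and 682.4 in trained mice. There 10 trained mice were above the VEH-HC range and 2 below it. Of 9 tested CA2 and CA3 markers Nptx1 rose by 0.27 and Cpne4 by 0.20, and of 11 interneuron markers Gad1 fell by 0.26 and Slc32a1 by 0.35. No marker of astrocytes, oligodendrocytes or microglia passed, 0 of 10, 0 of 11 and 0 of 11 in limma.

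With the covariates, the log2 difference was −0.19 ± 0.36 for Gpx3, −0.33 ± 0.33 for Hs3st2, −0.33 ± 0.40 for Tmem91, −0.53 ± 0.39 for Dlk1 and −0.50 ± 0.43 for Calb2, which is itself among the thalamus markers. It was −1.30 ± 0.52 for Tshz2, −1.32 ± 0.56 for Nxph3 and −1.62 ± 0.53 for Grp. VEH-T3 mouse 1, Y397F-T10 mouse 1 and Y397D-T3 mouse 3 stood apart through high values of several of these genes, and VEH-T3 mouse 5 had the highest thalamus sum, 133.7 FPKM. Without these 4 libraries, chosen after their values were seen and for levels of genes that fell elsewhere, 827 rows were higher and 1369 lower.

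**Figure D3:**
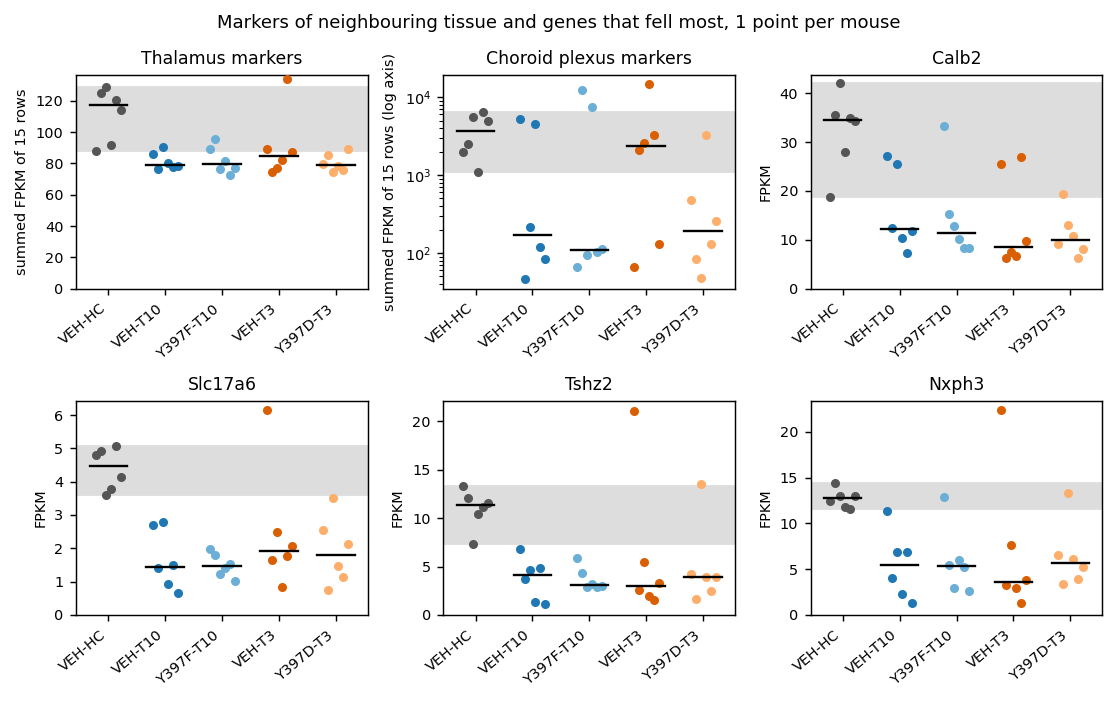
Summed FPKM of 15 thalamus and 15 choroid plexus marker rows (log axis for choroid plexus) and FPKM of Calb2, Slc17a6, Tshz2 and Nxph3 in each of the 30 mice by condition, with condition medians as lines and the VEH-HC range shaded. The thalamus sum is below the VEH-HC range in 18 of 24 trained mice, and VEH-T3 mouse 1 is the highest of all mice for Slc17a6, Tshz2 and Nxph3.

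Among the 12 largest rises, Hbb-bs, a beta globin gene, was listed at 0.0018 to 0.0022 FPKM in all 6 VEH-HC mice and at 0.0017 to 79.6 in trained mice (median 5.21), so no fold is given. Its medians were 0.0023 FPKM in VEH-T10 and 0.0025 in Y397F-T10, barely above VEH-HC, against 10.2 in VEH-T3 and 35.05 in Y397D-T3. The F test among the 4 trained conditions did not pass (adjusted p = 0.10), which does not show that they were alike. Near-identical globin rows such as Hbb-b1 were at 289.5 to 560.6 FPKM in VEH-HC and did not pass, and reads can be split between these copies. Tnfrsf25, a death receptor gene of the TNF receptor family, had 1.90, 2.38 and 3.29 FPKM in VEH-HC against 2.17, 4.83 and 7.51 in trained mice, with 20 of 24 above the range and a log2 difference of 0.72 ± 0.14. The adaptor gene Dok6 rose by 0.70 ± 0.14 and the transcription factor gene Zbtb20 by 0.66 ± 0.13. Zbtb20 overlaps Gm19522 on the opposite strand and BC002163 on its own. Robo3, a receptor gene of axon guidance (0.68 ± 0.22), the non-coding RNA Ipw (0.63 ± 0.13), the collagen gene Col11a1 (0.57 ± 0.12), the potassium channel gene Kcnq3 (0.52 ± 0.10) and Vps13c, a lipid transfer protein gene (0.51 ± 0.10), were the others besides Epha6, Egr1 and Kdm7a. Robo3 passed narrowly in limma (adjusted p = 0.046) and did not pass without VEH-HC mouse 4 (0.071). For it 20 trained mice were above the VEH-HC range and 3 below it. VEH-HC mouse 4 was the lowest home cage mouse for Dok6, Zbtb20, Kcnq3 and Vps13c. Without it their log2 differences were 0.54 ± 0.13, 0.54 ± 0.13, 0.38 ± 0.08 and 0.38 ± 0.08, and all still passed. Those of Tnfrsf25 (0.77), Robo3 (0.72) and Ipw (0.65) were larger than with that mouse. With the covariates Ipw differed by 0.17 ± 0.18, Tnfrsf25 by 0.32 ± 0.21 and Zbtb20 by 0.40 ± 0.20.

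Histone lysine methylase and demethylase genes had 9 raised (20% against 3.86% of all rows) and 0 lowered of 45 tested members, with a median of 0.05. Besides Kdm7a they were the H3K79 methyltransferase gene Dot1l (0.32 ± 0.06), Kmt2a (0.28 ± 0.07), Kmt2c, Kmt2d, Setd7, Ash1l, Kdm3a and Jmjd1c. Kmt2a had 4.89, 7.66 and 8.69 FPKM in VEH-HC against 7.26, 9.01 and 11.1 in trained mice, and 13 of 24 trained mice were above the range. VEH-HC mouse 4 was the lowest for Kmt2a, and without it 2 of the 45 members passed.

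Ss18l1, the gene of CREST, had 11.4, 12.5 and 13.3 FPKM in VEH-HC and 10.4, 12.9 and 14.7 in trained mice and did not pass (log2 difference 0.04 ± 0.05, adjusted p = 0.58, and 0.03 ± 0.07 with the covariates). The plasmid of 2 of the 4 trained conditions carries its coding sequence, and the part of plasmid reads in this level was not tested. Crebbp, the gene of its partner CBP, had 3.89, 5.88 and 6.59 FPKM against 5.47, 7.21 and 8.49, with 15 of 24 trained mice above the range, and rose by 0.26 ± 0.06 (adjusted p = 0.0072). After 10 min of training the difference from VEH-HC was 0.07 with vehicle and 0.28 with Y397F, and after 3 min it was 0.38 with vehicle and 0.32 with Y397D. The F test among those 4 conditions did not pass (adjusted p = 0.29), which does not show that they were alike. Of 22 tested genes of the CBP, p300 and CREB group 4 rose (18.18%), with Creb1, Crem and Ncoa3, and 1 fell (4.545%), Cited4, a CBP-binding coactivator gene (by 0.61). The 4 became 2 without VEH-HC mouse 4 and 0 with vehicle conditions only. Of 28 BAF subunit genes Dpf3 rose by 0.31 ± 0.10, and Smarcb1 fell by 0.18 and Smarcd1 by 0.13, counts of 3.571% and 7.143% that are near the background. With the covariates Smarcb1 differed by −0.11 ± 0.07.

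The shares in this and the following lists compare with 3.86% higher and 5.79% lower of all tested rows. Of 21 tested NMDA and AMPA receptor genes 3 rose (14.29%), the NMDA subunit gene Grin2a (0.68 ± 0.14), the AMPA subunit gene Gria2 (0.22 ± 0.06) and the auxiliary subunit gene Shisa6 (0.24 ± 0.06), and 1 fell (4.762%), Cacng3. Leaving out VEH-HC mouse 4 left 1 raised, with Gria2 (adjusted p = 0.072) and Shisa6 (0.078) no longer passing. With the covariates the log2 differences were 0.43 ± 0.23 for Grin2a, 0.05 ± 0.08 for Gria2 and 0.10 ± 0.10 for Shisa6. Grin2a had 3.45, 8.70 and 11.0 FPKM in VEH-HC against 9.10, 13.9 and 19.9 in trained mice. Of 12 GABA-A subunit genes 1 rose (8.333%), Gabrb1 by 0.35 ± 0.07, and 2 fell (16.67%), Gabrg1 by 0.39 and Gabra3 by 0.55, the last of these with 20 trained mice below the VEH-HC range and 2 above it. Gabra3 passed neither after centring (adjusted p = 0.094) nor without VEH-HC mouse 4 (0.081). Among 20 neuronal calcium sensor genes 2 rose (10%), Cabp7 (0.31 ± 0.07) and Hpca, and 4 fell (20%), Hpcal1 (by 0.43), Calb2, Kcnip1 and Kcnip3. The list had 2 lowered members after centring and 2 without VEH-HC mouse 4.

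In the stress lists, 4 of 42 heat shock and chaperone genes rose (9.524%), Hsph1 (0.21 ± 0.04), Chordc1 (0.23 ± 0.04), Dnajb5 and Hspa1b, and Hspa9, the mitochondrial HSP70 gene, fell by 0.13. Hspa9 differed by −0.08 ± 0.05 with the covariates and Chordc1 by 0.15 ± 0.07. Of 19 glucocorticoid receptor and target genes 3 rose (15.79%), Klf9 (0.25 ± 0.05), the mineralocorticoid receptor gene Nr3c2 (0.26 ± 0.06) and Errfi1, and 1 fell (5.263%), Dusp1. The 3 rises became 1 without VEH-HC mouse 4 and 0 with vehicle conditions only. Of 75 nuclear genes of oxidative phosphorylation 5 fell (6.667%) and 1 rose (1.333%), a lowered share near that of all rows, with a median of −0.06. Atp5d fell by 0.20, Ndufv1 by 0.16 and Atp5a1 by 0.13, and Atp5d differed by −0.09 ± 0.08 with the covariates. Both after centring and without VEH-HC mouse 4, 1 fell and 1 rose. Of 79 cytosolic ribosomal protein genes only Rpl26 passed, with 3.83, 26.4 and 46.6 FPKM in VEH-HC against 23.1, 40.7 and 70.2 in trained mice, and only 5 trained mice were above the VEH-HC range. Its log2 difference was 0.86, and 0.53 ± 0.43 with the covariates.

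Of 36 SR and hnRNP splicing factor genes 4 rose (11.11%), with Srsf10 (0.20 ± 0.04), Hnrnpm (0.17 ± 0.05) and Srsf1 (0.11 ± 0.03) passing with the smallest p of the list, and 2 fell (5.556%). The split was 8 raised and 0 lowered after centring, and Srsf1 differed by 0.07 ± 0.05 with the covariates. Of 26 tested genes of the Wnt ligand, receptor and antagonist list 0 rose and 4 fell (15.38%), Wnt9a (by 0.60), Wnt4 (by 0.32), Wnt7b and the feedback gene Axin2 (by 0.20), with a median of −0.15 that became 0.02 with the covariates, under which Axin2 differed by −0.07 ± 0.08. After centring 2 of the 26 were lowered. Of 23 tested collagen genes 3 rose (13.04%), Col11a1, Col4a2 (0.33 ± 0.09) and Col11a2, and 1 fell (4.348%), Col23a1 by 0.55. A single collagen gene was raised without VEH-HC mouse 4. With the covariates Col23a1 differed by −0.08 ± 0.20, and the median of the list went from −0.14 to 0.21.

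**Figure D4:**
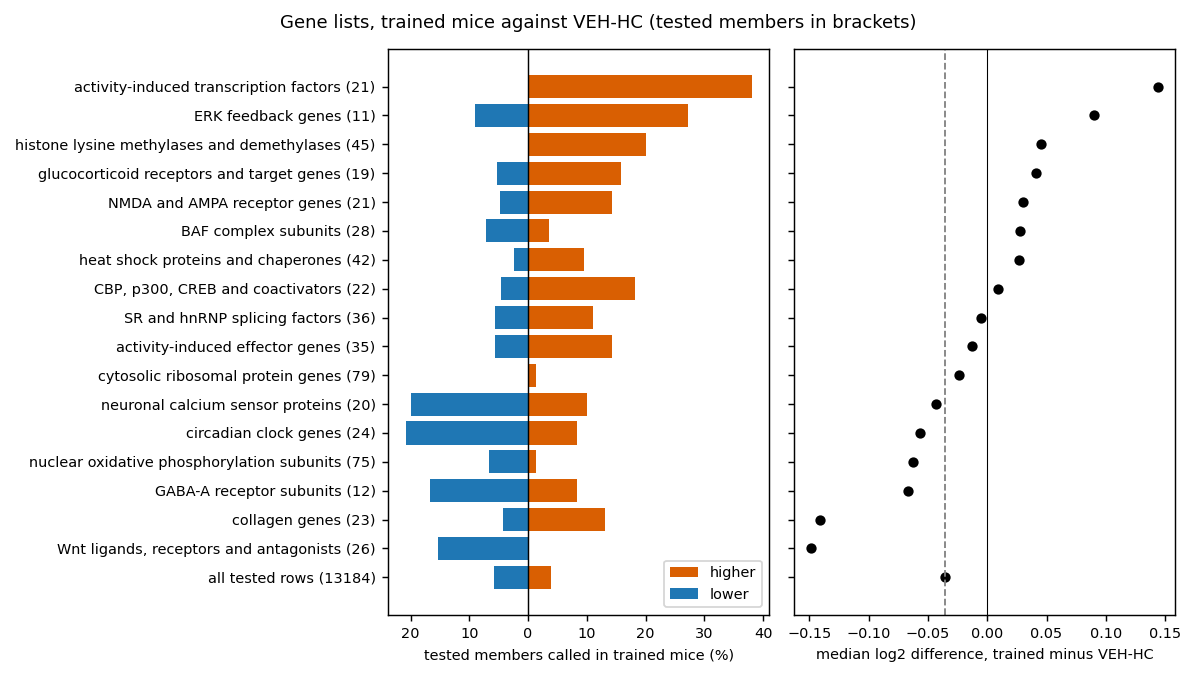
Left, percentage of the tested members of each gene list called higher (orange) or lower (blue) in trained mice; right, median log2 difference of each list, trained minus VEH-HC, with the median over all 13184 tested rows (−0.04) dashed. Among the lists drawn, activity-induced transcription factors have the largest raised share, 38.1%, and circadian clock genes the largest lowered share, 20.83%.

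The 4 trained conditions share the 6 VEH-HC mice, so their differences from VEH-HC are given side by side only. In the order Y397F-T10, VEH-T10, Y397D-T3, VEH-T3, the log2 differences were 0.47, 0.47, 0.55 and 0.61 for Egr1 and 0.51, 0.42, 0.44 and 0.45 for Homer1. They were −0.73, −0.73, −0.65 and −0.72 for Dbp and −0.36, −0.36, −0.45 and −0.40 for Nr1d1. For Epha6 they were 0.60, 0.49, 0.83 and 0.69. The F test over the 4 trained conditions found 6 of 13184 rows (0.0455%) at an adjusted p under 0.05, and 1040 at an unadjusted p under 0.05. A single gene of those named by the rule was among them. Zbed5, a transposon-derived gene, had mean levels of 9.55 ± 0.75 FPKM (SD, n = 6) in VEH-T10 and 7.93 ± 0.49 in VEH-T3, and of 9.01 ± 0.43 with the plasmid in Y397F-T10 and 7.50 ± 0.56 in Y397D-T3, against 10.5 ± 0.65 in VEH-HC. Among the other rows were Ccdc9, Lrrc58, Tmem263 and Gm12338, and of these Ccdc9 alone also passed between trained and home cage mice. Zbed5 overlaps Phkg1 on the opposite strand by 2827 bases. B930041F14Rik, the remaining gene among the 5 lowered with the smallest p, fell by 0.27 (SE 0.04), with 23 of 24 trained mice below the VEH-HC range.

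**Figure D5:**
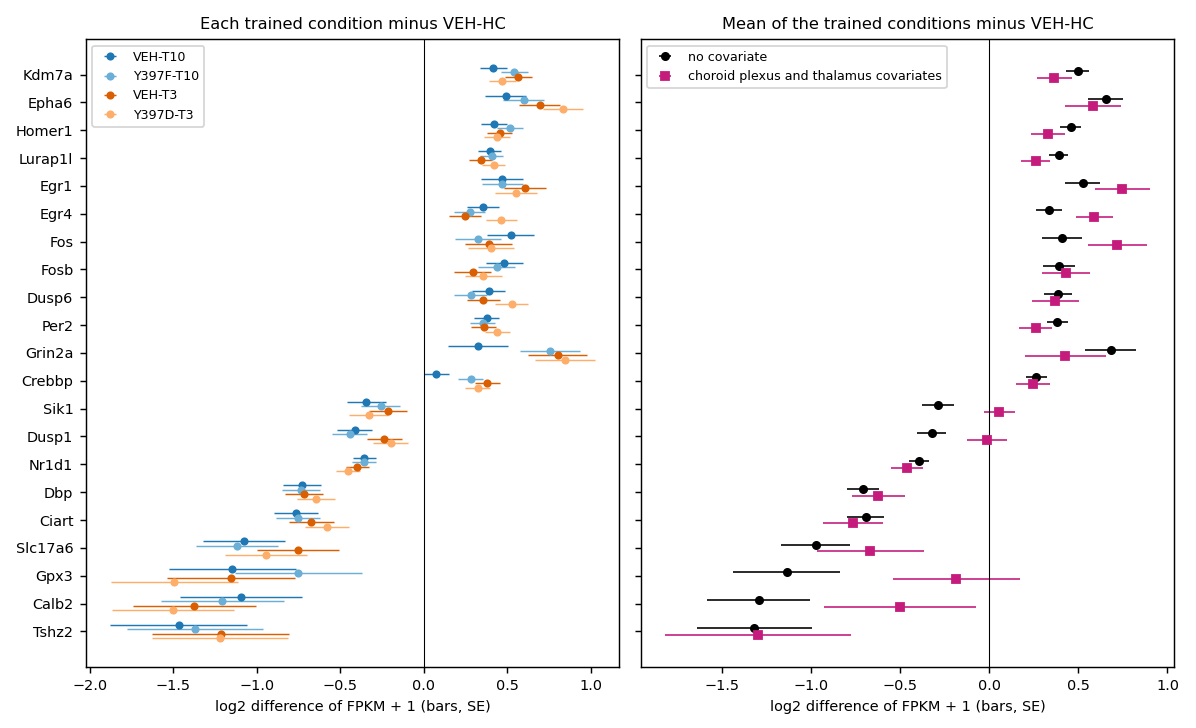
Log2 differences of FPKM + 1 with SE for 21 genes, each trained condition minus VEH-HC (left) and the mean of the 4 conditions minus VEH-HC without and with choroid plexus and thalamus covariates (right). Egr1 moves from 0.52 to 0.75 and Gpx3 from −1.14 to −0.19 when the covariates are added.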

How the data were processed

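RNA-seq libraries of 30 mice were analysed, 1 per mouse, from 150-base read pairs of NovaSeq and HiSeq runs. Which library ran on which platform is not given in the sources used here. The authors aligned reads to mm10 with TopHat2 2.1.1 and made the deposited FPKM values with Cufflinks 2.2.1. All 30 columns were mapped to samples by the labels. FPKM holds no read totals; depth relative to the median library, from steps of low values, was 0.813 to 1.25, and absolute depth is unknown.

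Rows with a mean of at least 1 FPKM were tested as log2(FPKM + 1) in limma 3.58.1 (R 4.3.3), with 1 coefficient per condition, trended empirical Bayes moderation and Benjamini-Hochberg adjustment over 13184 rows. The contrast gave the 4 trained conditions equal weight. Rows of 280 symbols with several rows were tested singly. The script was tested on simulated data. Replicates are different mice; same-numbered mice were not paired. Positions come from GENCODE annotation of GRCm38 and promoters from RefSeq.

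Named genes were the 12 per direction with the largest differences whose 4 condition medians lay outside the VEH-HC range (symbols with 1 row), the 5 per direction with the smallest p, all that passed in the activity-induced, ERK feedback and clock lists, up to 3 per other list, and Ss18l1 and Crebbp; some results are not reported here. Marker genes, other list members and genes that did not pass were named after their values were seen. The comparison and lists were chosen with earlier results of these data known. The list shares and medians are descriptions without a test. Alternatives tried were another pseudocount, other filters, median centring, removal of length and GC trends, unadjusted and Cyber-T-style tests, other groupings, left-out mice or conditions, a replicate block and tissue covariates.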

Additional observations from a re-analysis of the deposited data

Results flagged for a closer look

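Mice that stood far from the other 5 of their condition were sought among the 85 named genes, where the gap to the nearest mouse exceeded Dixon's 95% limit for 6 values. This found 56 values in 425 tests, and chance alone gives about 1 in 20. VEH-T3 mouse 1 had the highest value of its condition for Tshz2 (21.1 FPKM), Nxph3 (22.4), Grp (31.1), Slc17a6 (6.15), Ntn5 (4.28), Rgs4 (50.7), Npas2 (6.4), Gabrg1 (4.46), Gabra3 (20.4) and Wnt4 (2.93). Y397F-T10 mouse 1 had the highest value of its condition for Calb2 (33.4 FPKM), Nxph3 (12.9), Grp (33.7), Tmem91 (11.6), Ntn5 (4.27), Dlk1 (3.88), Ciart (4.87), Nr4a3 (22.8), Rgs4 (56.3) and Gabra3 (23.0), and the lowest value of its condition for Egr3 (28.3 FPKM), Bdnf (10.3), Klf9 (45.5) and Smarcb1 (34.1). Y397D-T3 mouse 3 had the highest value of its condition for Tshz2 (13.5 FPKM), Nxph3 (13.3), Hs3st2 (3.89) and Ntn5 (3.57). VEH-T10 mouse 1 had the highest value of its condition for Hs3st2 (5.51 FPKM), Dlk1 (2.22) and Gabra3 (15.8), and the lowest value of its condition for Dpf3 (2.95 FPKM). Many of these genes are among the largest falls in trained mice.

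VEH-T10 mouse 3 had the highest value of its condition for Hbb-bs (17.4 FPKM) and Crem (7.75). Y397F-T10 mouse 5 had the highest value of its condition for Hbb-bs (13.1 FPKM). Y397F-T10 mouse 2 had the lowest value of its condition for Tnfrsf25 (2.17 FPKM). Y397D-T3 mouse 2 had the highest value of its condition for Epha6 (24.5 FPKM). VEH-T3 mouse 5 had the lowest value of its condition for Ipw (2.98 FPKM), Arl5b (2.27) and Spred2 (26.4). VEH-HC mouse 5 had the highest value of its condition for Gpx3 (27.9 FPKM), and the lowest value of its condition for Errfi1 (11.4 FPKM). VEH-T10 mouse 5 had the highest value of its condition for Fos (9.15 FPKM), and the lowest value of its condition for Sfpq (47.9 FPKM). Y397D-T3 mouse 1 had the lowest value of its condition for Sfpq (47.7 FPKM), Spred1 (22.9) and Kmt2a (7.44). Y397D-T3 mouse 5 had the highest value of its condition for Gria2 (117.3 FPKM), and the lowest value of its condition for Fosb (2.01 FPKM). VEH-HC mouse 4 had the lowest value of its condition for Arl5b (1.79 FPKM), Clock (5.5), Kmt2a (4.89) and Crebbp (3.89). VEH-HC mouse 2 had the highest value of its condition for Per2 (5.32 FPKM). VEH-T10 mouse 6 had the lowest value of its condition for Srsf1 (25.1 FPKM). VEH-HC mouse 6 had the lowest value of its condition for Wnt9a (2.43 FPKM).

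Zbed5 differed among the 4 trained conditions in the F test (limma, adjusted p = 0.0213), with log2 differences from VEH-HC of −0.13 (VEH-T10) and −0.20 (Y397F-T10) after 10 min and −0.37 (VEH-T3) and −0.44 (Y397D-T3) after 3 min of training.

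Of 5107 rows under the mean of 1 FPKM that were tested without that filter, 9 were higher in trained mice at an adjusted p under 0.05 (limma). They were Grin1os, 6230400D17Rik, Tm6sf2, 2310068J16Rik, A630089N07Rik, Recql4, BC065397, Gm9833 and Gm16551, with log2 differences from 0.15 to 0.30, and Grin1os, an antisense transcript of the NMDA receptor gene Grin1, had a mean of 0.493 FPKM in VEH-HC and 0.847 in trained mice.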

How the results depend on the processing

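The 509 higher and 764 lower rows became 0 and 0 with choroid plexus and thalamus covariates and 0 and 0 with thalamus markers alone. They were 921 and 1828 with a Cyber-T-style test and 1147 and 2193 in limma, both at unadjusted p, 165 and 303 with vehicle conditions only, and 245 and 453 without Y397D-T3. Centring gave 603 and 307, and centring without VEH-HC mouse 4 gave 352 and 139. Leaving out 4 trained libraries that stand apart gave 827 and 1369. Leaving out each VEH-HC mouse gave 268 to 472 higher and 325 to 555 lower. Single covariates, centring without VEH-HC mouse 4 and leaving out the 4 trained libraries were chosen after seeing the data. The 6 rows of the F test among trained conditions were 10 at a mean of at least 5 FPKM, 3 after centring, 3 after removal of length and GC trends, 579 and 1040 at unadjusted p with the Cyber-T-style test and limma, 1 without VEH-T10, 2 without Y397F-T10, 31 without VEH-T3, 0 without Y397D-T3 and 1 with both covariates. Sik1 turned from −0.29 to 0.0575 with both covariates and to 0.10 with thalamus markers alone. The cause was not tested in any of these.

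A replicate block gave 531 higher, 862 lower and 0 in the F test (1058 at unadjusted p in limma). The numbers belong to different mice, same-numbered mice deviated together with a median correlation of 0.04 over 60 pairs, and 8 of 30 libraries correlated best with their own number. Of the 85 named genes 83 kept their call and direction under the block, 84 with a pseudocount of 0.1, 74 after centring, 59 without VEH-HC mouse 2, 64 without VEH-HC mouse 4 and 49 with vehicle conditions only, Ss18l1 included, which did not pass. With both covariates 0 of the 84 that had passed in limma passed. Absolute depth is unknown, so values under 1 FPKM are imprecise.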

Other observations

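The gene groups below were chosen after their values were seen, are given as values and have no test of their own beside the limma fit over all rows. All 5 genes of the GPI transamidase, the enzyme that attaches membrane proteins to their glycolipid anchor, were lower in trained mice, against 5.79% of all tested rows. Pigk had 17.3 to 18.0 FPKM in VEH-HC and 14.3 to 16.5 in trained mice, and Gpaa1 had 18.4 to 19.9 against 14.9 to 17.9. Neither overlapped, which held for 0.0683% of all tested rows in this direction. Pigk fell by 0.16, Gpaa1 by 0.18, Pigs by 0.18, Pigt by 0.25 and Pigu by 0.22 on the log2 scale. Pigs passed in limma neither after centring (adjusted p = 0.058) nor without VEH-HC mouse 4 (0.11). With the tissue covariates the log2 differences were −0.12 ± 0.05, −0.18 ± 0.05, −0.04 ± 0.08, −0.16 ± 0.09 and −0.05 ± 0.07.

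Both genes of the cold-inducible RNA-binding proteins fell, against 5.79% of all tested rows. Cirbp had 48.1 to 61.8 FPKM in VEH-HC and 31.4 to 49.8 in trained mice, with 22 of 24 trained mice below the VEH-HC range, and fell by 0.39 (SE 0.06, adjusted p = 0.00046). Rbm3 had 77.2 to 105.8 FPKM against 51.1 to 87.8, with 23 trained mice below the range, and fell by 0.38 (SE 0.08). With the tissue covariates the differences were −0.34 ± 0.10 and −0.42 ± 0.13.

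Shares here compare with 3.86% higher and 5.79% lower of all tested rows. Of 11 tested Eph receptor genes 3 rose (27.27%) and 0 fell, Epha6, Epha5 (0.33 ± 0.07) and Epha4 (0.29 ± 0.06). Of the 3 ryanodine receptor genes, which encode calcium release channels, Ryr2 rose by 0.37 ± 0.07 and Ryr3 by 0.46 ± 0.08. Of 17 citric acid cycle enzyme genes 0 rose and 5 fell (29.41%), with Cs, the citrate synthase gene, by 0.15 and Mdh2 by 0.16, and of 20 cytosolic aminoacyl-tRNA synthetase genes 0 rose and 3 fell (15%), Gars, Wars and Aars. After centring 0 genes of either group passed in limma, with adjusted p of 0.10 for Gars and 0.20 for Wars and Aars. Leaving out VEH-HC mouse 4 left 1 lowered gene of the citric acid cycle, and Wars (adjusted p = 0.076) and Aars (0.068) no longer passed. The median differences of these groups were −0.11 for the citric acid cycle and −0.08 for the synthetases, against −0.04 over all tested rows.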
